A study of Solanum lycopersicum with 12 samples.

Results

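The genes followed in ripe tomato fruit make or break down gamma-aminobutyric acid (GABA): the glutamate decarboxylases GAD1 (Solyc03g098240), GAD2 (Solyc11g011920) and GAD3 (Solyc01g005000), and the GABA transaminase GABA-T1 (Solyc07g043310). They were chosen by identifier, and all 4 of the 4 were among the 17887 genes of the deposited table. By their identifiers they lie on chromosomes 3, 11, 1 and 7. RNA of the fruit mesocarp, the flesh of the wall, was sequenced at the red ripe stage from greenhouse plants of 4 genotypes. The parents are the recombinant inbred lines Querubín FCA, here Q, and Gema FCA, here G, both bred from Solanum lycopersicum crossed with wild S. pimpinellifolium. QxG and GxQ are the hybrids of these lines in both crossing directions. Each genotype had 3 libraries from 3 fruits, called biological replicates in the labels, which do not say whether the fruits came from separate plants. All 4 genotypes descend from both species, and neither species itself was sampled.

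GABA is a non-protein amino acid that tomato fruit stores in large amounts while green and draws down during ripening. Glutamate decarboxylases make it in the cytosol by removing a carboxyl group from glutamate, and in plants many of these enzymes carry a calmodulin-binding tail that holds them in check. GABA transaminase then moves the amino group onto another acid in the mitochondrion, and succinic semialdehyde dehydrogenase passes the product on to the citric acid cycle, a route called the GABA shunt. GAD3 is known from genome editing of tomato as a strong lever on fruit GABA.

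Levels are given as CPM, a gene's reads per 1000000 reads of a library whose size was scaled by TMM factors. Library totals ran from 15207931 to 25320267 reads. Each of the 4 genes had at least 95 reads in every library, and 100 reads carry a counting error of 10%. Some libraries stood apart within their genotype. Across genes, r between the third Q library and the first and second was 0.953 and 0.957, while the first and second had 0.987. In QxG the first library had r of 0.951 and 0.950 with its fellows and held 1436 genes at 0 reads. A gene was called at an adjusted p under 0.05 in edgeR's quasi-likelihood test over all genes. The share of all genes called was 7.31% for Q against G, 10.1% for QxG against GxQ, 9.55% for QxG against Q, 8.5% for QxG against G, 15.5% for GxQ against Q, 12.3% for GxQ against G and 11.4% for the hybrids together against the mid-parent, the mid-parent being halfway between Q and G on the fitted log scale. With the replicate number as a block in the hybrids, a fit added after seeing the data, 2148 genes were called for Q against G in place of 1308. Against these shares, 2 of the 4 genes were called between Q and G, 2 between QxG and Q, 2 between GxQ and Q, 1 between GxQ and G and 1 between the hybrids and the mid-parent. None was called between QxG and GxQ or between QxG and G by edgeR. There, 1 gene each had an unadjusted p under 0.05 (GAD3 and GAD2), as had 4402 and 4700 of all 17887 genes. DESeq2 called 0 and 1 of the 4 genes, the latter where it called 2769 of all genes. The comparisons of this paragraph share libraries and are not independent of each other. With the third Q and the first QxG library both left out, the counts were the same except that GAD2 was also called between QxG and G. The share of all genes called then ran from 14.1% to 21.9%, and was 15.0% in place of 8.5% for QxG against G.

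**Figure D1:**
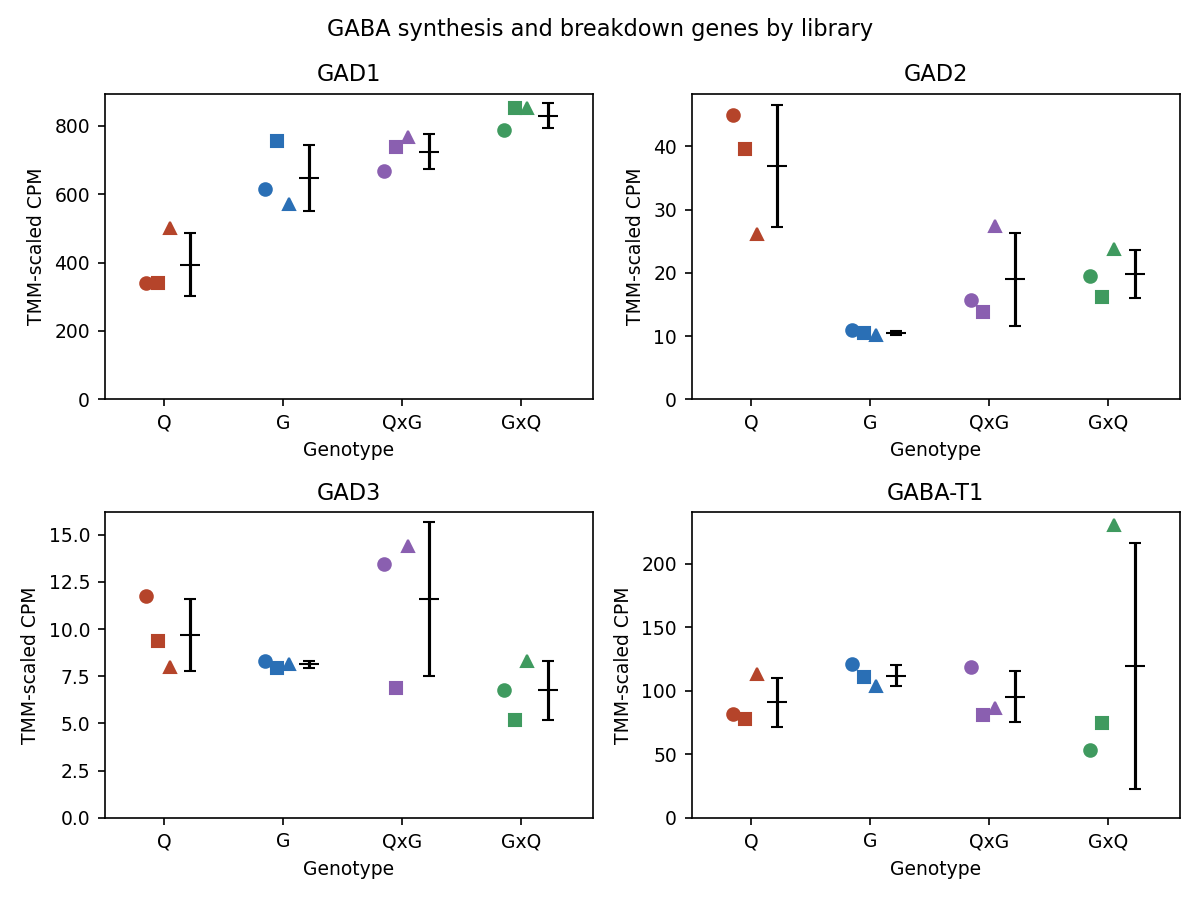
TMM-scaled CPM of the 4 genes in each library, by genotype. Circles, squares and triangles are the first, second and the third library of a genotype, and the black bar with whiskers is the mean with its SD over 3 libraries. GAD1 is lowest in Q, GAD2 is highest in 2 of the Q fruits, and GABA-T1 has 1 GxQ fruit at 231 CPM.

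GAD1 was lower in the Q line than in G and higher in both hybrids than in Q. Single Q fruits held 341, 339 and 501 CPM of GAD1. Those of G held 616, 755 and 572 CPM. In QxG the values were 669, 737 and 768 CPM, and in GxQ 789, 851 and 851 CPM. All 3 Q fruits lay below every fruit of the other genotypes, while G and QxG overlapped and the 3 GxQ fruits lay above all others. The Q mean of 394 ± 92.9 CPM compared with 648 ± 95.6 CPM for G (SD, n = 3 each), a log2 fold change of -0.72 (SE 0.192, adjusted p = 0.0437). The QxG mean was 725 ± 50.9 CPM, higher than in Q by a log2 fold change of 0.88 (SE 0.193, adjusted p = 0.0196). In GxQ the mean was 830 ± 36.1 CPM, or 211% of the Q mean (log2 fold change 1.08, SE 0.193, adjusted p = 0.00531). In bulk tissue such as this, fewer cells of a type and less RNA per cell cannot be told apart.

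On the linear scale QxG stood at 139% and GxQ at 159% of the average of the parental means of GAD1. On the log scale both hybrids together were higher than the mid-parent by 0.62 (SE 0.136, adjusted p = 0.0152). Against G alone the log2 fold changes were 0.16 in QxG (95% interval -0.28 to 0.60, adjusted p = 0.633) and 0.36 in GxQ (-0.08 to 0.80, adjusted p = 0.248). Between the hybrids the difference was -0.20 for QxG minus GxQ (-0.64 to 0.24, adjusted p = 0.571), although their fruits did not overlap. In order of mean the genotypes ran Q, G, QxG, GxQ, and of the neighbours in that order only Q and G differed past the threshold. The GAD1 call against Q in GxQ and the call against the mid-parent were kept in all 21 and 20 alternative settings tried. Their adjusted p reached 0.0352 and 0.0490, the latter close to the threshold. The call between Q and G was kept in 10 of 21. It ended without any 1 of the first and second Q, the 3 G, the second and the third QxG and the third GxQ library (adjusted p = 0.0624 to 0.175), and with DESeq2's size factors, a filter at 1 CPM or only the genotypes compared (0.0522 to 0.0772). The call between QxG and Q ended without the first or second Q or the third QxG library (adjusted p = 0.0569 to 0.0853), or with only the genotypes compared (0.0779).

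GAD2 had the opposite order of the parental lines and lay between them in both hybrids. Q fruits held 44.9, 39.6 and 26.2 CPM of GAD2. G fruits held 10.9, 10.4 and 10.2 CPM, a range narrower than that of any other genotype. QxG fruits held 15.7, 13.8 and 27.3 CPM, and GxQ fruits 19.4, 16.1 and 23.8 CPM. The fruits of G lay below all others, and the third QxG fruit was the 1 hybrid fruit that reached the lowest Q fruit. Q averaged 36.9 ± 9.65 CPM and G 10.5 ± 0.345 CPM (SD, n = 3 each), a 3.51-fold higher level in the former (log2 difference 1.81 with SE 0.276, adjusted p = 0.00380). This call was kept in 21 of 21 alternative settings, with log2 fold changes of 1.65 to 2.04.

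In both hybrids GAD2 was lower than in Q. The QxG mean was 19.0 ± 7.31 CPM, 51.5% of the Q mean, and the GxQ mean 19.8 ± 3.83 CPM, 53.7% of it. GAD2 fell relative to Q by 0.96 on the log2 scale in QxG (SE 0.269, adjusted p = 0.0448) and by 0.90 in GxQ (SE 0.268, adjusted p = 0.0422). It rose relative to G in GxQ by 0.91 (SE 0.272, adjusted p = 0.0480). In QxG the value against G was 0.85 (SE 0.272, adjusted p = 0.0737), with no overlap between the fruits. A block on replicate number in the hybrids alone, chosen after seeing that their same-numbered libraries deviated together, gave 0.79, which passed (adjusted p = 0.0351). The same block in all 12 libraries ended the GAD2 calls of QxG against Q, GxQ against Q and GxQ against G (adjusted p = 0.0536, 0.05003 and 0.0651).

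From the mid-parent both hybrids together differed by -0.02 in GAD2 (95% interval -0.46 to 0.42, adjusted p = 0.953). QxG minus GxQ was -0.06 (-0.68 to 0.56, adjusted p = 0.916). The genotypes ran in the order G, QxG, GxQ, Q, and among neighbours only GxQ and Q differed past the threshold. The calls between hybrids and parents stood near it. They ended without 9 of the 12 libraries taken singly for QxG against Q (all but the third Q, the third QxG and the second GxQ), 8 for GxQ against Q (the first and second Q and every G and GxQ library) and 7 for GxQ against G (the first and second Q, every G and the first and the third GxQ library), with adjusted p up to 0.190, 0.137 and 0.152. The value in QxG against G passed without the third Q or the second QxG library (adjusted p = 0.0424 and 0.0421).

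GAD3 was the least counted of the decarboxylase genes, and no difference passed the test. Its levels were 11.7, 9.36 and 7.97 CPM in the Q fruits and 8.28, 7.95 and 8.17 CPM in those of G. In QxG they were 13.4, 6.89 and 14.4 CPM, and in GxQ 6.75, 5.20 and 8.32 CPM. The fruits of each genotype overlapped those of every other, and the second QxG fruit lay apart from the first and the third. By edgeR 0 of the 7 comparisons were called for GAD3, with 1 at an unadjusted p under 0.05 and 0 called by DESeq2. The widest difference was between the hybrids, with 11.6 ± 4.09 CPM in QxG and 6.76 ± 1.56 CPM in GxQ (log2 fold change 0.78, SE 0.287, unadjusted p = 0.0189, adjusted p = 0.115). With the replicate block in the hybrids it was 0.74 and passed (adjusted p = 0.0452), and without the second QxG library it was 1.08 (adjusted p = 0.0217). Q and G averaged 9.69 ± 1.91 and 8.13 ± 0.173 CPM, a log2 fold change of 0.25 (95% interval -0.40 to 0.91, adjusted p = 0.616). In order of mean the genotypes ran GxQ, G, Q, QxG, with no neighbours past the threshold. GAD3 in both hybrids differed from the mid-parent by -0.01 (-0.47 to 0.46, adjusted p = 0.991).

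GABA-T1, which breaks GABA down, had no difference that passed the test either, and 1 fruit set most of its spread. Q fruits held 81.8, 77.8 and 113 CPM and G fruits 121, 111 and 104 CPM. QxG fruits held 119, 81.1 and 86.5 CPM. Those of GxQ held 53.1, 74.9 and 231 CPM, so that this genotype had both the lowest fruit and the highest. Q and G averaged 90.9 ± 19.3 and 112 ± 8.50 CPM, and QxG and GxQ 95.4 ± 20.3 and 119 ± 96.8 CPM (SD, n = 3 each). The order of means was Q, QxG, G, GxQ, and every pair of genotypes overlapped. By edgeR, at an unadjusted p under 0.05 and by DESeq2, 0 of the 7 comparisons were called.

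For Q against G the log2 fold change of GABA-T1 was -0.30 (95% interval -1.27 to 0.66, adjusted p = 0.690). For the hybrids relative to the mid-parent it was 0.08 (-0.60 to 0.76, adjusted p = 0.891). These intervals include changes of more than 1.5-fold either way. The third GxQ library, with 4072 GABA-T1 reads against 1038 and 1369 in the first and second, turned the direction of several comparisons. Without it, GABA-T1 in GxQ differed from G by -0.81 in place of 0.09 (adjusted p = 0.0618), from Q by -0.53 in place of 0.40 (adjusted p = 0.175), and QxG minus GxQ was 0.61 in place of -0.32 (adjusted p = 0.153). The same fruit held 851 CPM of GAD1, 23.8 CPM of GAD2 and 8.32 CPM of GAD3, within or close to the range of the other hybrid fruits.

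**Figure D2:**
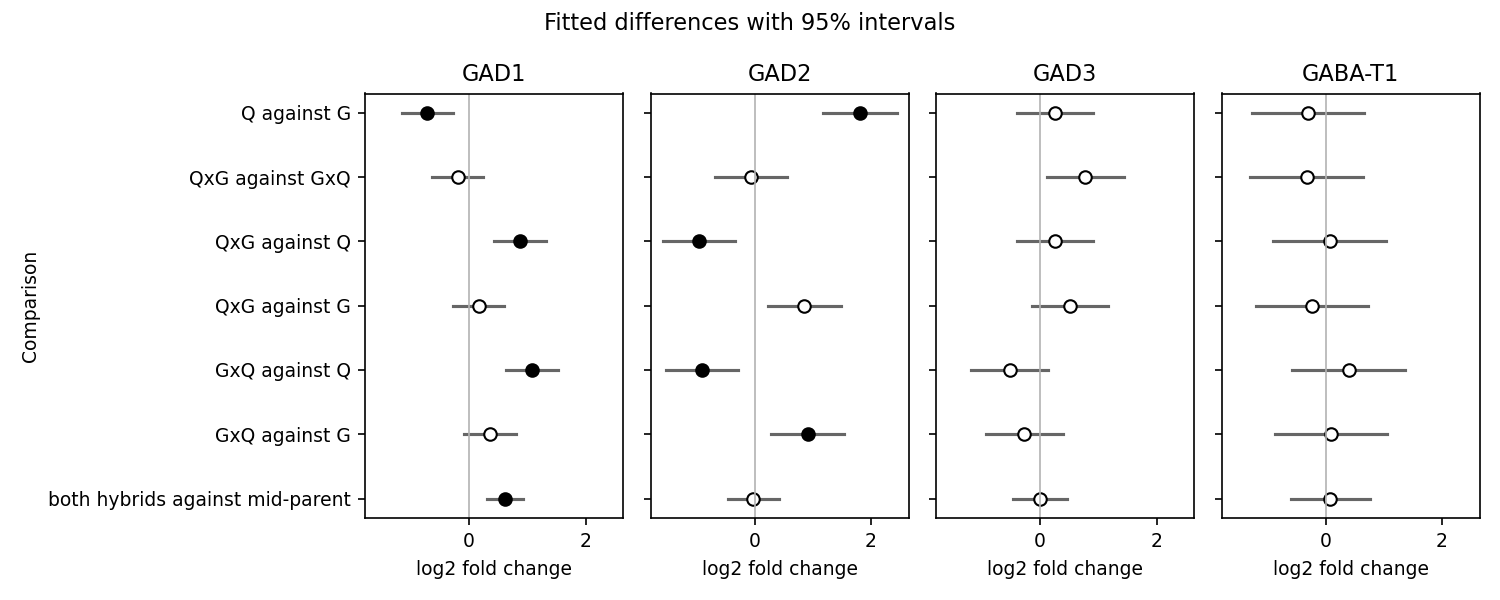
Fitted log2 fold changes of each gene in 7 comparisons (first-named minus second-named genotype), with 95% intervals as lines. Filled points passed an adjusted p under 0.05 in edgeR's quasi-likelihood test over all genes. GAD1 and GAD2 have 4 filled points each, with opposite signs for Q against G, and GAD3 and GABA-T1 have 0.

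The make-up of the decarboxylase reads was compared between libraries as the share of each gene in the reads of GAD1, GAD2 and GAD3 together. Transcript lengths were not used here, so a share is a share of reads and does not give the share of transcripts. How reads that match more than 1 of these related genes were counted is not known. GAD1 took 85.8%, 87.4% and 93.6% of these reads in the Q fruits and 94.8% to 97.6% in the other 9. The GAD2 share was 11.3%, 10.2% and 4.89% in Q, with 95% exact binomial intervals of 10.7% to 11.9%, 9.59% to 10.8% and 4.47% to 5.33% that cover counting error only. It was 1.35% to 1.73% in G, 1.83% to 3.38% in QxG and 1.85% to 2.69% in GxQ. Every Q fruit was above every other fruit, and every hybrid fruit was above every G fruit. The mean GAD2 share was 8.78 ± 3.42% in Q and 1.60 ± 0.215% in G, with an exact 2-sided permutation p of 0.10, the smallest that 3 against 3 fruits allow (adjusted p = 0.165 over 28 such tests).

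GAD3 shares were 2.95%, 2.41% and 1.49% in Q and 1.03% to 1.38% in G. They ran from 0.909% to 1.93% in QxG and from 0.596% to 0.942% in GxQ, so that the highest GxQ fruit was below the lowest Q and G fruits. Summed over the 3 genes, decarboxylase levels averaged 441 ± 82.3 CPM in Q, 666 ± 95.4 CPM in G, 755 ± 56.0 CPM in QxG and 857 ± 36.8 CPM in GxQ. The 6 hybrid fruits averaged 806 CPM and the 6 parental fruits 554 CPM. Their ranges overlapped, and the exact 2-sided permutation p was 0.00649 (adjusted p = 0.165), with fruits of different genotypes pooled on each side. As 24 of the 28 tests are of 3 against 3 fruits, a single test at the smallest p of 6 against 6, 0.00216, would have an adjusted p of 0.0606. The adjusted value thus says little. The unadjusted p takes fruits of different genotypes as interchangeable, though Q and G did not overlap in this sum. It therefore does not measure an effect of being a hybrid.

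The reads of GABA-T1 were also set against the summed decarboxylase reads of the same fruit. This ratio was 20.5%, 20.0% and 21.1% in the Q fruits, with an SD of 0.549 percentage points. It was 19.1%, 14.4% and 17.6% in G and 17.0%, 10.7% and 10.7% in QxG. In GxQ it was 6.51%, 8.59% and 26.1%, with the third fruit above all others of the study. The GxQ mean was 13.7%, and 7.55% without the third fruit. Every Q fruit was above every G and QxG fruit. On the log2 scale the mean of the hybrids minus that of the parents was -0.65 (exact 2-sided permutation p = 0.0584, adjusted p = 0.165, 6 against 6 fruits), and -0.87 without the third GxQ fruit. Here too fruits of different genotypes were pooled on each side.

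**Figure D3:**
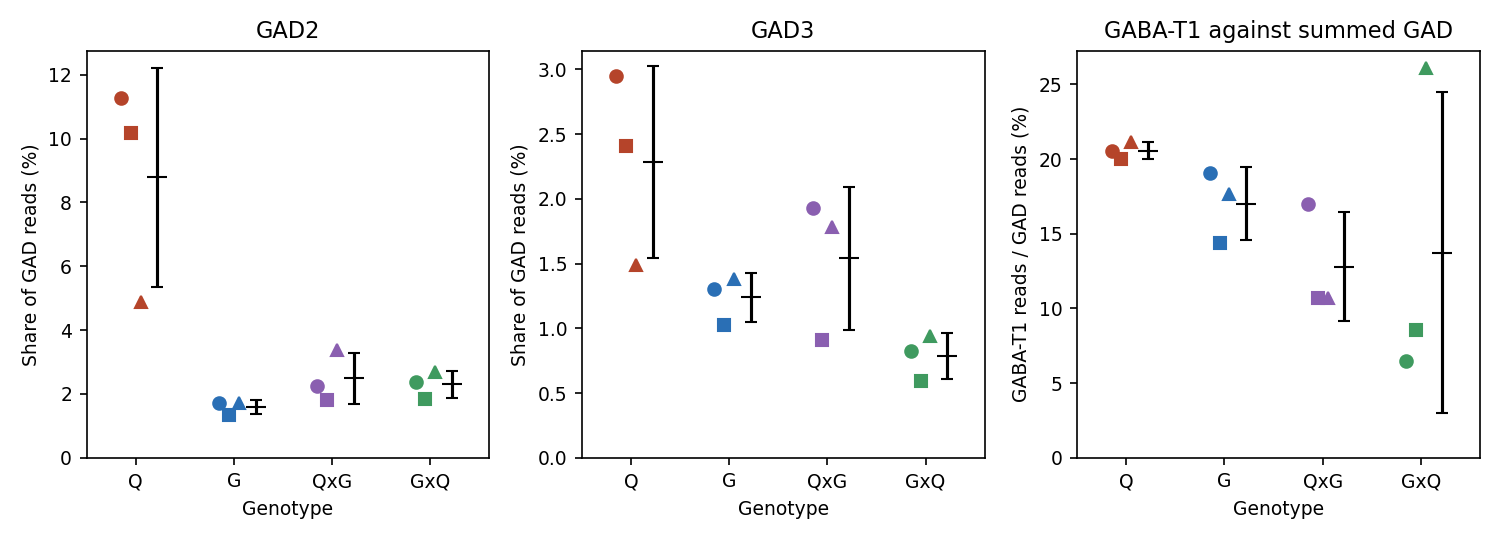
Share of GAD2 (left) and GAD3 (middle) in the reads of the 3 GAD genes, and GABA-T1 reads as a percent of summed GAD reads (right), in each library by genotype. Symbols mark the first (circle), second (square) and the third (triangle) library, and black bars are means with SD over 3 libraries. The Q fruits stand at 4.89% to 11.3% for GAD2, above all others, and the third GxQ fruit stands at 26.1% in the right panel.

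The 4 genes did not move as 1 group across the 12 libraries. On log2(CPM + 0.5), GAD1 and GAD2 had a Pearson r of -0.59 and GAD1 and GAD3 of -0.34, while GAD2 and GAD3 had 0.40. The correlations of GABA-T1 with GAD1, GAD2 and GAD3 were 0.18, -0.15 and 0.18. These values are descriptions over 12 libraries that share genotypes. The biological coefficient of variation between fruits of a genotype, as fitted per gene, was 0.181 for GAD1, 0.244 for GAD2, 0.261 for GAD3 and 0.361 for GABA-T1, against a median of 0.247 over all genes. This value is fitted over all genotypes together, and that of GABA-T1 ranked above 70.7% of genes. Within genotypes, the SD of GABA-T1 was 81.0% of the mean in GxQ. It was 21.3% in Q, 7.58% in G and 21.2% in QxG.

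Of 12477 other genes with a mean of at least 5 CPM, those with the highest r to GAD1 over the 12 libraries were Solyc11g013370 (0.97) and Solyc11g065920 (0.96). For GAD2 they were Solyc09g007280 (0.94) and Solyc01g008960 (0.93), and for GAD3 Solyc05g024260 (0.91) and Solyc03g034370 (0.87). The nearest to GABA-T1 were Solyc03g006020 and Solyc04g077810 (both 0.83). The files do not pair these identifiers with names.

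Neighbours of the shunt were read from a list of 26 genes of glutamate and GABA metabolism, carbon supply and calmodulin. The list was written with earlier results of these data known, so its counts and medians are descriptions only. For 15 of the 26 genes RefSeq held a gene of that symbol on the same chromosome and at a like place along it. Of these 15, 14 were measured. Of the 14, 3 passed between the parents (21.4%, against 7.31% of all genes), 2 of them higher and 1 lower in Q. The list median log2 fold change was 0.21, against 0.01 over all genes. GTS1, a gene of glutamine synthetase, which builds glutamine from glutamate, was 9.56-fold higher in Q than in G (adjusted p = 0.000535). Its levels were 13.8, 21.3 and 30.3 CPM in the Q fruits, 1.86 to 2.83 CPM in G, 0.948 to 1.42 CPM in QxG and 0.274 to 0.460 CPM in GxQ, the last from only 5 to 9 reads. No 2 genotypes overlapped in GTS1. GS2, the plastid glutamine synthetase, was higher in Q by a log2 fold change of 3.78 (adjusted p = 0.0160), with 2.09, 1.30 and 7.91 CPM in Q and 0.135 to 0.352 CPM, from only 2 to 9 reads, in G. Without the third Q library its fold went from 13.7 to 6.29 (adjusted p = 0.0354). CaM2, a calmodulin gene, was lower in Q, with 144 ± 27.3 CPM, than in G, with 422 ± 120 CPM (log2 fold change -1.55, adjusted p = 0.00952). Calmodulin genes are close copies of each other, so the split of reads among them is uncertain.

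SSADH, the enzyme that takes up the product of GABA transaminase, was higher in both hybrids than in Q. Q fruits held 52.9, 56.7 and 72.9 CPM of SSADH and G fruits 87.6, 130 and 79.1 CPM. QxG fruits held 139, 91.7 and 118 CPM, and GxQ fruits 112, 101 and 95.8 CPM. All Q fruits were below all others, as for GAD1. Unlike GAD1, SSADH was not called in Q against G (log2 fold change -0.70, SE 0.214, adjusted p = 0.0656). The log2 fold change against Q was 0.94 in QxG (SE 0.214, adjusted p = 0.0227) and 0.76 in GxQ (SE 0.214, adjusted p = 0.0348). The first ended without the first or second Q or the third QxG library (adjusted p up to 0.0911), and the second without the first or second Q or any GxQ library (up to 0.114).

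Between QxG and Q 4 of the 14 listed genes were called (28.6%, against 9.55% of all genes), 2 higher and 2 lower in QxG (median -0.18, against -0.09 over all genes). Besides SSADH these were CaM2, with a log2 fold change of 1.09, GTS1 with -4.26, and PPC1, a phosphoenolpyruvate carboxylase gene, with -0.98 (adjusted p = 0.0326, 0.000152 and 0.0276). Between GxQ and Q 6 were called (42.9%, against 15.5% of all genes), 2 higher and 4 lower in GxQ (median -0.44, against -0.02 over all genes). GTS1 had -5.83, CaM2 1.62, CaM1 -0.50 and the glutamine synthetase GS1 -1.25 (adjusted p = 1.84e-05, 0.00460, 0.0349 and 0.0195). GS1 fruits ran from 1016 to 2010 CPM in Q and from 431 to 812 CPM in GxQ.

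Between the hybrids 2 of the 14 were called (14.3%, against 10.1% of all genes), with a list median of 0.33 against -0.02. They were GTS1, higher in QxG by 1.56, and CaM6 with a log2 fold change of -0.89 (adjusted p = 0.0243 and 0.0230). GxQ differed from G in GTS1 alone (-2.57, adjusted p = 0.00337), 7.14% of the list against 12.3% of all genes. The list median there was -0.08, against 0.01. By edgeR 0 of the 14 were called between QxG and G, against 8.5% of all genes (list median 0.01, against -0.04). There, 2 of the 14 had an unadjusted p under 0.05, as had 4700 of all 17887 genes. DESeq2 called 1 of the 14, where it called 2769 of all genes. Against the mid-parent 3 were called (21.4%, against 11.4% of all genes), all lower in the hybrids, with a list median of -0.13 against -0.03. They were GTS1 (-3.41), GS1 (-0.76) and PPC1 (-0.58), with adjusted p = 5.96e-05, 0.0392 and 0.0424. GS1 and PPC1 lost this call without any 1 of 10 and 9 of the 12 libraries (adjusted p up to 0.0833 and 0.111): GS1 was called without the first Q or the third GxQ library, and PPC1 without the third Q, the first QxG or the first GxQ library. Other calls on listed genes also hung on single libraries. GS2 between Q and G ended without any G library (up to 0.0749), and GTS1 between the hybrids without the third QxG or the second or the third GxQ library (up to 0.0810). CaM6 ended without the first or second QxG or the first or the third GxQ library (up to 0.117). CaM2 in QxG against Q ended without any Q or the second or the third QxG library (up to 0.0900), and PPC1 there without the first or second Q or the second or the third QxG library (up to 0.115). In GxQ against Q, GS1 ended without the first or second GxQ library (up to 0.0708), and CaM1 without the second or the third Q, the first or the third G or any GxQ library (up to 0.0899).

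Some of these calls also ended under other settings. With only the genotypes compared, GTS1 and CaM6 between the hybrids had adjusted p of 0.191 and 0.113, SSADH, PPC1 and CaM2 in QxG against Q 0.0581, 0.114 and 0.0763, and GS1 and CaM1 in GxQ against Q 0.0820 and 0.0840. With total library size, SSADH and CaM2 in QxG against Q had 0.0522 and 0.0918, and SSADH in GxQ against Q 0.0905. The block in all 12 libraries ended CaM2 in QxG against Q (0.0523) and SSADH in GxQ against Q (0.0544). Without the third Q and first QxG library together, CaM6 between the hybrids (0.0653) and GS1 against the mid-parent (0.0592) ended.

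With the third Q and first QxG library left out, calls were more frequent over all genes as well as in the list. Of the 14 listed genes 4 were then higher and 2 lower between Q and G, where 16.5% of all genes were called. The counts were 5 and 1 between QxG and GxQ (14.1% of all genes), 5 and 3 between QxG and Q (20.9%) and 2 and 1 between QxG and G (15.0%). They were 2 and 5 between GxQ and Q (20.5%), 1 and 3 between GxQ and G (21.9%) and 3 and 3 against the mid-parent (20.4%).

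Markers of other tissues, 1 gene each, lay higher in every Q fruit than in every G fruit, as GAD2 did. Every hybrid fruit was above every G fruit in GAD2. The same held for QxG in CAB3C, but not for GxQ in CAB3C or for either hybrid in CER6. CER6, a cuticular wax gene of the epidermis and the 1 of 3 listed epidermis genes measured, stood at 8.18, 12.8 and 3.52 CPM in the Q fruits. It was 0.0980 to 1.01 CPM in G, up to 0.534 CPM in QxG with the first library listed at 0, and 0.109 to 0.614 CPM in GxQ. The third Q fruit was the lowest of Q in CER6, as in GAD2, and the highest of Q in CAB3C. The latter, a chlorophyll-binding protein gene and the 1 of 2 listed green tissue genes measured, stood at 18.4, 8.95 and 19.3 CPM in Q, 3.82 to 6.22 CPM in G, 7.46 to 14.1 CPM in QxG and 2.46 to 5.32 CPM in GxQ. The part of the tissue mix in the GAD2 difference was not tested. By identifier, 0 of the 4 listed seed genes were in the deposited table, whose genes all exceed 0.5 CPM in at least 3 libraries.

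All 5 listed genes of ripe flesh were measured (PG2A, PSY1, PL, E4 and EXP1), and their sum was at least 7935 CPM in every library. This summed level was 10798, 11453 and 28465 CPM in Q and 17577 to 19048 CPM in G. It was 11857 to 16372 CPM in QxG and 7935 to 11521 CPM in GxQ. The third Q fruit was the highest of all, and in this fruit GAD1 was higher and GAD2 lower than in the other Q fruits. Across genotypes the order differed: GxQ, with the most GAD1, included the library with the lowest ripe flesh sum. The genes of the sum did not move alike. In GxQ against Q, where GAD1 differed most, the softening genes PL, EXP1 and PG2A were lower, at -2.41, -2.29 and -1.64 on the log2 scale (adjusted p = 0.00120, 0.0107 and 0.0482). PSY1, of carotenoid synthesis, and E4 had -0.25 and 0.01 there (adjusted p = 0.624 and 0.990). PL was also lower in GxQ than in G (-2.22, adjusted p = 0.00252), and PL and EXP1 were higher in QxG than in GxQ (1.66 and 1.76, adjusted p = 0.00364 and 0.0346). Against the mid-parent PL alone of the 5 passed (-1.49, adjusted p = 0.00219). The part of ripeness in the differences of GAD1 and GAD2 was not tested. Without the third Q and the first QxG library the log2 fold changes of Q against G were -0.93 for GAD1 and 2.01 for GAD2 (adjusted p = 0.00881 and 0.00232).

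**Figure D4:**
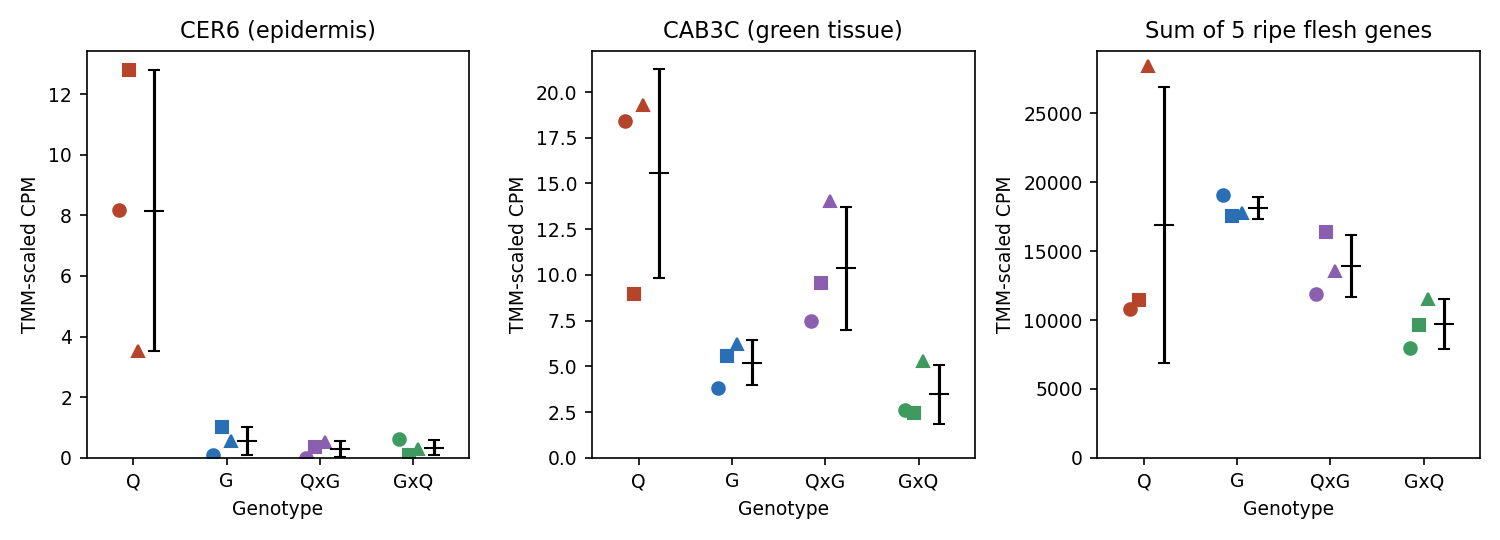
TMM-scaled CPM of CER6, of CAB3C and of the sum of 5 ripe flesh genes in each library by genotype. Circles, squares and triangles are the first, second and the third library, and black bars are means with SD over 3 libraries. CER6 is at 3.52 to 12.8 CPM in Q and at most 1.01 CPM elsewhere, and the third Q fruit has the highest ripe flesh sum, 28465 CPM.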

How the data were processed

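The authors deposited 1 table of whole-number read counts per gene for 12 libraries. Per the submitters' processing notes, which give no roles, FastQC, fastp 0.21, HISAT2 2.1.0, featureCounts (Subread), edgeR and R 4.0.3 were used. The sources used here do not give build, annotation, strand setting or the handling of reads with several matches, so near-identical copies, overlapping genes and alleles may not be separable. All genes exceed 0.5 CPM in at least 3 libraries.

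Here edgeR 4.0.16 (R 4.3.3) fitted 1 mean per genotype over 12 libraries with TMM scaling. filterByExpr removed 0 genes. P-values of the quasi-likelihood test were Benjamini-Hochberg adjusted over 17887 genes, with calls under 0.05. SE is the log2 fold change over the square root of F, and intervals use 8 residual degrees of freedom. P-values set a difference in means against the spread between these fruits, estimated over all genotypes in the fit. Alternatives were DESeq2 1.42.0, other scalings, filters and dispersion settings, fits of the compared genotypes alone, a replicate block and left-out libraries. All 12 columns were mapped.

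The labels number the replicates but pair no libraries across genotypes, and the main fit had no block. The added block in the hybrids took same-numbered QxG and GxQ libraries as paired, a pairing picked from these data. Their deviations from group means correlated at 0.164, 0.333 and 0.209. No other pair of genotypes had all above 0.1. No libraries were identical, and pairs of the same genotype had a chi-square per gene of 15.3 to 139, above sampling noise.

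None of the Solyc identifiers matched RefSeq (SLM_r2.1). Names rest on identifiers written by hand, checked by RefSeq symbol, chromosome and place. GAD1 has no such symbol there, and 11 listed genes without one were not used. PL was not checked in this way. Named list genes are up to 5 called per comparison with the smallest adjusted p. Members and lists were chosen with earlier results of these data known. Protein lengths planned for the composition were not used here, so reads stand unscaled.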

Additional observations from a re-analysis of the deposited data

How the results depend on the processing

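Apart from single left-out libraries, values are given where an alternative changed a member's call or direction. Counts called over all genes are given where they moved by over 1.5 times, and other counts are left out. The cause of a change was not tested. Of the members' values under settings other than leaving out 1 library, 223 kept direction and side of the threshold, 11 lost a call, 4 gained one and 10 small uncalled values changed sign. Robust dispersion estimates made no such change. The fit with no filter equals the main one, as 0 genes were removed, and is not counted. Low counts limit GS2, with 2 to 9 reads in G, and GTS1, with 5 to 9 reads in GxQ.

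GAD1 in Q against G did not pass with DESeq2 size factors (-0.70), at least 1 CPM everywhere (-0.67) or only the genotypes compared (-0.70), nor GAD1 in QxG against Q with the last (0.94). GAD2 in QxG against Q did not pass with DESeq2 size factors (-0.93) or only the genotypes compared (-0.89), in GxQ against Q with only these genotypes (-0.90), and in GxQ against G with total library size (0.90). GAD2 in QxG against G passed by DESeq2 (0.90) and without the third Q and first QxG library together (1.03). That pair left out turned GAD2 in QxG against GxQ (0.12). Total library size turned GAD3 and GABA-T1 in QxG against Q (-0.052 and -0.18) and GABA-T1 against the mid-parent (-0.067). Against the mid-parent, DESeq2 size factors turned GAD2 (0.00044) and GAD3 (0.018), as did the DESeq2 test (0.00058 and 0.018).

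The replicate block in the hybrids, whose libraries the labels do not pair, was chosen after seeing the data. It gave 2148 called genes for Q against G, passed GAD3 in QxG against GxQ (0.74) and GAD2 in QxG against G (0.79), turned GABA-T1 in GxQ against G (-0.12), and changed no other member's call. A replicate block in all 12 libraries, whose numbers are only shared, ended GAD2 calls in QxG against Q (-1.0005), GxQ against Q (-0.93) and GxQ against G (0.90). That block also turned GABA-T1 in GxQ against G (-0.082).

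Genes called with only the genotypes compared numbered 2553 for Q against G, 1143 for QxG against GxQ and 297 for QxG against Q. Total library size gave 2663 for QxG against Q. Without the third Q and first QxG library they numbered 2939 for Q against G, 3739 for QxG against Q, 2682 for QxG against G, 3919 for GxQ against G and 3649 against the mid-parent. DESeq2 gave 2643, 3085, 2769, 3379 and 3224 for the same comparisons. Total library size moved the median of all genes by 0.19 (Q against G), -0.29 (QxG against Q), -0.21 (GxQ against Q) and -0.15 (mid-parent). It took the share of calls that were higher from 61.6% to 82.2%, 38.1% to 11.9%, 52.3% to 24.7% and 46.4% to 20.0%.

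Leaving out 1 library at a time gave 335 (without the first G) to 2207 (without the first QxG) called genes for Q against G, 1127 to 2205 for QxG against GxQ, 311 to 2606 for QxG against Q, 342 to 1993 for QxG against G, 1258 to 3828 for GxQ against Q, 777 to 3072 for GxQ against G and 1002 to 2663 against the mid-parent. GAD1 ranged from -0.92 to -0.59 in Q against G and from 0.82 to 1.11 in QxG against Q. GAD2 ranged from -0.38 to 0.16 in QxG against GxQ, -1.29 to -0.75 in QxG against Q, 0.53 to 1.07 in QxG against G, -1.11 to -0.73 in GxQ against Q, 0.76 to 1.04 in GxQ against G and -0.19 to 0.083 against the mid-parent. GAD3 ranged from 0.62 to 1.08 in QxG against GxQ and -0.090 to 0.13 against the mid-parent. GABA-T1 ranged from -0.68 to 0.61 in QxG against GxQ, -0.093 to 0.28 in QxG against Q, -0.53 to 0.75 in GxQ against Q, -0.81 to 0.45 in GxQ against G and -0.36 to 0.26 against the mid-parent. Of the group means of the composition, the GxQ ratio of GABA-T1 to decarboxylase reads moved by over 1.5 times, from 13.7% to 7.55% without the third fruit. Scaling by protein length was not run.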
